A study of Mus musculus with 6 samples.

Results

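The genes examined here are 10 genes that store neutral lipid in lipid droplets or release fatty acids and cholesterol from it, namely Plin2, Plin3, Soat1, Lipe, Pnpla2, Dgat1, Dgat2, Mgll, Lipa and Lpin1. They were chosen by name, with earlier results of these data known, and each was found once among the 16300 genes of the deposited RNA-seq table. RNA was sequenced from 6 libraries of primary mouse granulosa cells (GCs), which nurse the oocyte and make estradiol in the follicle. Of these, 3 came from control cells and 3 from cells given 25 nM of the androgen dihydrotestosterone (DHT) for 24 h, and the comparison asks which transcripts differ after androgen exposure. All libraries came from wild type C57BL/6J females aged 8 to 9 weeks. GCs were taken on the day of estrus by puncture of the follicles and were pooled from several animals for each library. The cells were grown with serum, starved of it and then kept in serum-free medium with or without DHT. The study's methods describe 3 such pools for each treatment, so the spread within a group is that between pools. Neither the methods nor the labels say whether control and DHT libraries of one number shared a pool.

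Granulosa cells, like other steroid-producing cells, keep cholesterol as esters in lipid droplets and draw on these for steroid synthesis. In the droplet, triglyceride and cholesterol ester form the core and perilipins coat the surface. Glycerol phosphate acyltransferases, lipins and DGAT enzymes build triglyceride in successive steps, SOAT enzymes esterify cholesterol, neutral lipases cut both at the droplet and lysosomal acid lipase cuts them after delivery to the lysosome.

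The libraries held between 36111177 and 41928585 reads in genes, and the values used are normalized counts, which are reads divided by a size factor for each library. Differences are given as log2 fold changes of DHT over control from limma, on log2(normalized count + 1), with a standard error (SE) and a p adjusted over the 16292 genes whose mean reached 10. A gene counted as called when this p did not exceed 0.05. Of the granulosa marker genes checked, 9 of 10 were analysed, without the aromatase gene Cyp19a1, and their summed level was between 171200 and 196600 normalized counts in every library. Of 7 adipocyte markers only Fabp4 was analysed, and it reached at most 39.2 normalized counts.

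DHT-treated GCs had more transcript of Lpin1, which makes the diacylglycerol that triglyceride is built from, and less of Soat1, which makes cholesterol esters. Lpin1 rose 1.34-fold, with a log2 fold change of 0.42 (SE 0.08, n = 3 against 3, adjusted p = 0.0122). Soat1 fell to 0.827 of its control level, with a log2 fold change of -0.27 (SE 0.07, adjusted p = 0.0305). The other 8 genes, which include both perilipins, both DGAT enzymes and all 4 lipases, were not called. Of all genes tested, 6.52% were called higher and 4.66% lower, or 11.2% in either direction, so that 1 gene called in each direction among 10 lies near these shares. None of the 10 passed the stricter rule of the study, which also asks for a log2 fold change above 1 in size and which 1.31% of all genes met. The median log2 fold change of the 10 genes was -0.02, and that of all genes tested was -0.01.

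**Figure D1:**
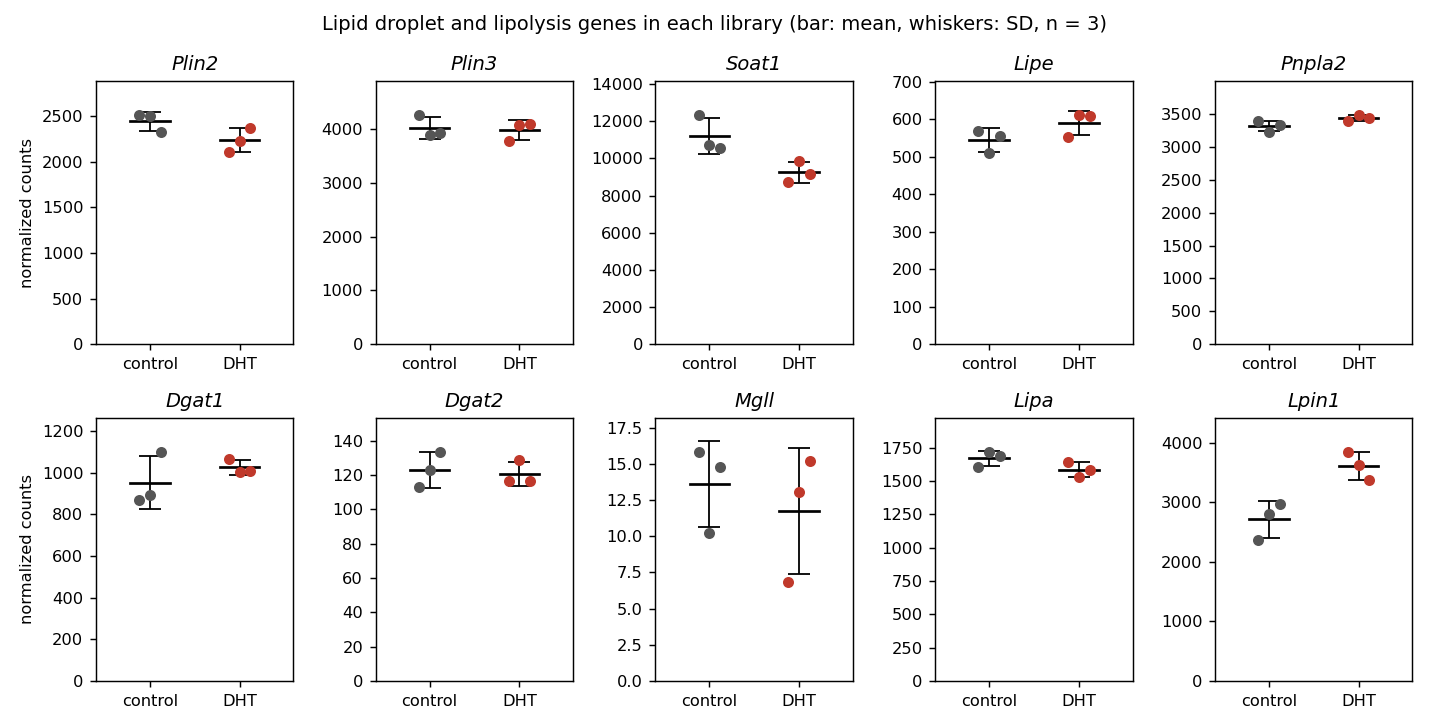
Normalized counts (y axis, from 0, a scale for each gene) of the 10 genes in the 3 control (grey) and 3 DHT (red) libraries, with bars for the mean and whiskers for the SD. Lpin1 lies higher and Soat1 lower in every DHT library than in every control library, while the points of most other genes overlap between the groups.

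Lpin1 encodes a phosphatidate phosphatase, which turns phosphatidic acid into diacylglycerol and can also act in the nucleus as a coregulator of transcription. Its gene lies at chr12:16535669-16610966 on the minus strand of GRCm38. It was measured at 2371, 2797 and 2974 normalized counts in control replicates 1, 2 and 3. In the DHT replicates it was measured at 3845, 3623 and 3370. The lowest DHT library thus lay above the highest control library, and the group means were 2714 ± 310 and 3613 ± 237 (SD, n = 3). The 95% interval of the log2 fold change ran from 0.23 to 0.60. Lpin1 stayed called without any 1 of the 6 libraries, with adjusted p-values between 0.00376 and 0.0484 from limma. It was not called when the variance was fitted without a trend on expression (adjusted p = 0.0886).

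The start regions of Lpin1 and Soat1 are shown because these were the genes called, with the 250 bases before the start site that RefSeq gives for GRCm38.p6. Capitals mark matches to AGAACA (a piece of the androgen response element), CACGTG (an E-box), AGGTCA (a nuclear receptor site), TCACGTGA (the core of the element shared by lysosomal genes, which holds CACGTG) or TCACCCCAC (a sterol regulatory element), each searched on both strands. Lpin1 is read on the minus strand from chr12:16610967-16611216 and Soat1 on the minus strand from chr1:156474329-156474578.
Lpin1: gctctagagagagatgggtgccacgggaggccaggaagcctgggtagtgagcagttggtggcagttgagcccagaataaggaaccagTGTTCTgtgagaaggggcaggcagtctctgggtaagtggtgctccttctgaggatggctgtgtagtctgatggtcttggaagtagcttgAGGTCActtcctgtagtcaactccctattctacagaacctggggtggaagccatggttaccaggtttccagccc
Soat1: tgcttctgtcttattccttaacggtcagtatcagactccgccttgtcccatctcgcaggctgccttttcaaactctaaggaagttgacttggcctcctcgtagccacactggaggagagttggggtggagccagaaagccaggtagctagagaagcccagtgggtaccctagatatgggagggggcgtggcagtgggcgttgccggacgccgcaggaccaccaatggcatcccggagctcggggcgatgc
The Lpin1 stretch holds AGAACA on the opposite strand, seen as TGTTCT, beginning 163 bases before the start site, and AGGTCA beginning 74 bases before it. Neither the Soat1 stretch nor the 50 bases after its start site held any of the 5 motifs. Among 32851 RefSeq promoter windows of 300 bases, 19% held AGAACA and 16.3% held AGGTCA, so such matches are common. RefSeq windows were matched for 8 of the 10 genes, not for Dgat1 and Dgat2, and gave 10 windows. Of these, 2 held AGAACA (Lpin1 and Mgll), 2 held AGGTCA (Lpin1 and Plin2) and 3 held CACGTG (Plin2, Mgll and Lipe), which 7.15% of all windows held. TCACGTGA and TCACCCCAC were in 0 of the 10 windows, and in 0.974% and 0.551% of all windows.

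The other lipins, which share the phosphatidate phosphatase activity, rose as well. Lpin3 went from 2152, 2327 and 2044 normalized counts in control replicates 1 to 3 to 2994, 3176 and 3256 in the DHT replicates, a log2 fold change of 0.53 (SE 0.06, adjusted p = 0.000519). Lpin2 was measured at 3588, 4466 and 4232 in control and at 5666, 5304 and 5195 in DHT libraries, a log2 fold change of 0.40 (SE 0.08, adjusted p = 0.00988). For all 3 lipins the groups did not overlap, as for 30.6% of all genes tested. Per kilobase of exon, the control level was highest for Lpin3 at 589 ± 38.7, against 335 ± 37.2 for Lpin2 and 281 ± 32.1 for Lpin1 (SD, n = 3). With the longest transcript in place of all exons Lpin2 was highest at 726 ± 80.7, before Lpin3 at 627 ± 41.2 and Lpin1 at 486 ± 55.6, so the order of Lpin2 and Lpin3 depends on the length used.

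Triglyceride synthesis begins with glycerol phosphate acylation and ends with the DGAT enzymes. Gpam, the mitochondrial glycerol phosphate acyltransferase, rose from 4549, 4261 and 4254 normalized counts in control to 5865, 6213 and 6576 in DHT libraries (log2 fold change 0.51, SE 0.05, adjusted p = 0.000397). The other acyltransferases of that first step were not called: Gpat4, about as abundant as Gpam, had a log2 fold change of 0.09 (adjusted p = 0.157), Gpat3 one of 0.29 (adjusted p = 0.0617) and Gpat2 one of -0.20 (adjusted p = 0.802). Dgat1, which adds the last acyl chain to diacylglycerol in the endoplasmic reticulum, was measured at 869, 890 and 1099 in control and at 1066, 1001 and 1009 in DHT libraries. Control replicate 3 lay above all DHT libraries and the other two controls below them. Its log2 fold change was 0.11 with a 95% interval from -0.08 to 0.31 (adjusted p = 0.467). Single control libraries moved it both ways, to 0.22 and a call without control replicate 3 (adjusted p = 0.0355), and to 0.05 without control replicate 1 (adjusted p = 0.801) and 0.07 without control replicate 2 (adjusted p = 0.737). Dgat2, an unrelated enzyme for the same step, was measured at 113, 123 and 133 in control and at 116, 129 and 116 in DHT libraries, which overlapped. Its log2 fold change of -0.03 had an interval from -0.31 to 0.25 (adjusted p = 0.922).

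Of 21 other genes of glycerolipid synthesis tested, 5 were called higher and 2 lower, where 6.52% and 4.66% of all genes were. Their median log2 fold change was 0.03. Leaving out 1 library, 0 were called lower without control replicate 1, DHT replicate 1 or DHT replicate 2 and 1 without control replicate 2 or DHT replicate 3. Besides Gpam, Lpin2 and Lpin3, the endoplasmic reticulum oxidoreductase Tmx1 rose by 0.28 (adjusted p = 0.00206) on the log2 scale. Plpp1, a lipid phosphatase of the cell surface, rose by 0.45 (adjusted p = 0.0101), and 25.8% of its exonic bases overlap the gene Mtrex on the other strand. Those called lower were Plpp2, another lipid phosphatase, and the acyltransferase Agpat5, with log2 fold changes of -0.23 and -0.24. The most abundant genes of the list that were not called were Tmem86a at 0.14 and the acyltransferase Agpat3 at 0.03.

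**Figure D2:**
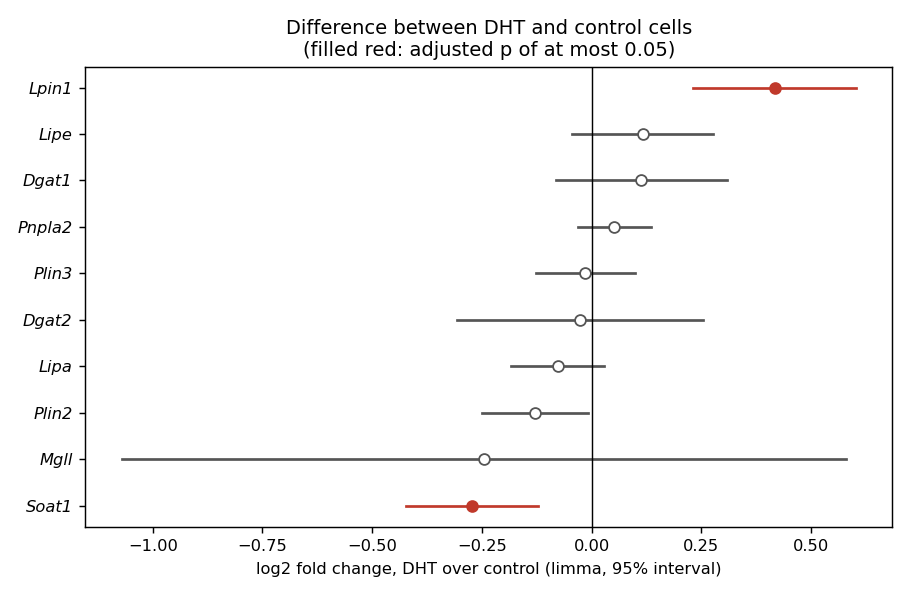
Log2 fold change of DHT over control (x axis) for each of the 10 genes (y axis), with points for the limma estimate, lines for its 95% interval, and filled red points for an adjusted p of at most 0.05. The intervals of Lpin1 and Soat1 lie clear of 0, that of Plin2 ends at -0.01 without passing the adjusted threshold, and that of Mgll is the widest, from -1.07 to 0.58.

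Soat1 encodes the acyltransferase that turns free cholesterol into cholesterol ester for the droplet, and lies at chr1:156424525-156474331 on the minus strand of GRCm38. It was measured at 12322, 10704 and 10570 normalized counts in control replicates 1 to 3. The DHT replicates held 8720, 9870 and 9172. All DHT libraries lay below all control libraries, and the means were 11199 ± 975 and 9254 ± 580 (SD, n = 3). The 95% interval of the log2 fold change ran from -0.42 to -0.12. This call depended on single libraries, since the adjusted p was 0.0549 without control replicate 1, 0.0978 without DHT replicate 1 and 0.107 without DHT replicate 3, while the log2 fold change stayed between -0.32 and -0.20. With no variance trend the adjusted p was 0.136.

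Its counterpart Soat2 was near the low end of the table, at 25.1 to 43.5 normalized counts in control and 27.2 to 39.3 in DHT libraries, and its log2 fold change was -0.16 (95% interval from -0.76 to 0.45). Nceh1, a neutral hydrolase of cholesterol esters, fell from 3134, 3165 and 3284 in control to 2408, 2507 and 2506 in DHT libraries (log2 fold change -0.37, SE 0.04, adjusted p = 0.000549). The groups were well apart, so that transcripts for an enzyme that makes cholesterol ester and for one that cuts it were both lower. Lipa, the lysosomal acid lipase, was measured at 1607, 1717 and 1688 in control and at 1642, 1529 and 1579 in DHT libraries. These overlapped, and the log2 fold change of -0.08 had an interval from -0.18 to 0.03 (adjusted p = 0.353).

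Of 11 other genes of cholesterol ester and cholesterol handling tested, 2 were called higher and 1, Nceh1, lower, where 6.52% and 4.66% of all genes were. Leaving out any 1 library other than DHT replicate 1, or quantile normalization, gave 1 called higher. Stard4, which carries cholesterol between membranes, rose by 0.85 (SE 0.10, adjusted p = 0.000878) on the log2 scale. Npc2, which hands cholesterol out of the lysosome, rose by 0.20 (adjusted p = 0.0495), close to the threshold. Scarb1, the receptor for high-density lipoprotein, and Star, which moves cholesterol into mitochondria, had log2 fold changes of 0.09 and 0.19 and were not called. The median over the 11 genes was 0.09.

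**Figure D3:**
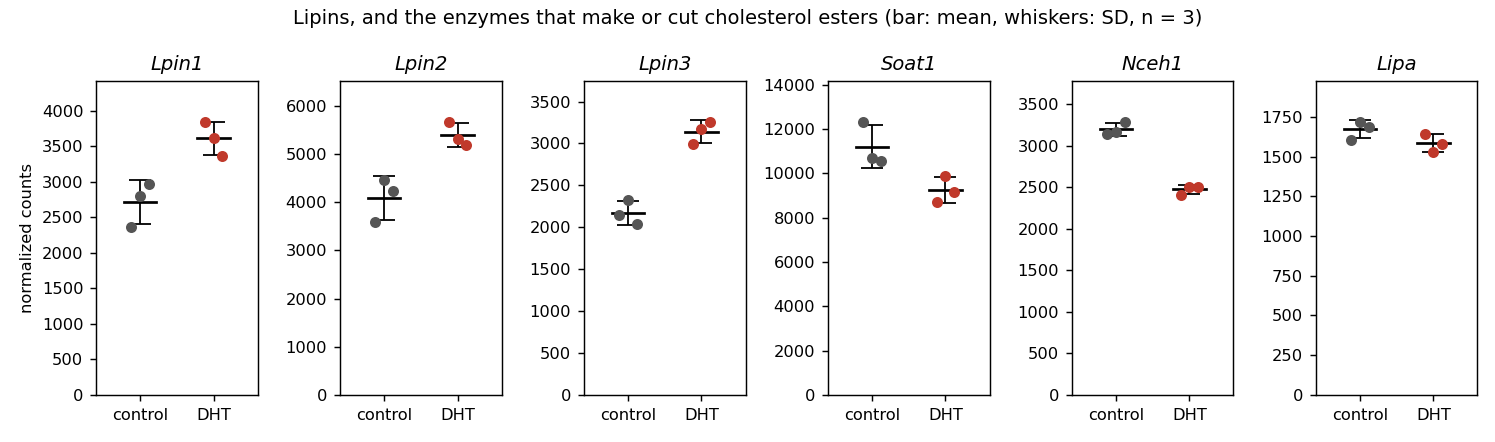
Normalized counts (y axis, from 0, a scale for each gene) of the 3 lipins and of Soat1, Nceh1 and Lipa in the 3 control (grey) and 3 DHT (red) libraries, with bars for the mean and whiskers for the SD. All 3 lipins are higher and Soat1 and Nceh1 are lower in every DHT library, while Lipa overlaps.

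Of the perilipins, Plin2 coats droplets in most cell types and is degraded when no droplet holds it, and Plin3 moves to droplets from the cytosol. Plin2 was measured at 2508, 2499 and 2323 normalized counts in control and at 2110, 2228 and 2368 in DHT libraries. DHT replicate 3 lay above control replicate 3, so the groups overlapped. Its log2 fold change was -0.13 (SE 0.05) with an interval from -0.25 to -0.01, and the adjusted p was 0.169. Plin3 was measured at 4260, 3894 and 3931 in control and at 3776, 4086 and 4104 in DHT libraries. These ranges overlapped, and the log2 fold change of -0.01 had an interval from -0.13 to 0.10 (adjusted p = 0.896).

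Plin5, a perilipin that tethers droplets to mitochondria, was scarcer but rose. It was measured at 67.3, 63.2 and 63.9 in control and at 97.9, 89.5 and 119 in DHT libraries, a log2 fold change of 0.64 (SE 0.15, adjusted p = 0.0298). Plin4 varied widely between control libraries, from 275 to 610, and had a log2 fold change of 0.07 (adjusted p = 0.889). Plin4 and Plin5 were named after their values were seen.

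Of 22 other droplet proteins tested, 7 were called higher and 2 lower, where 6.52% and 4.66% of all genes were. Their median log2 fold change was 0.03. Without DHT replicate 2 or 3, 4 were called higher, and leaving out any 1 library other than control replicate 3 gave 1 called lower. The 3 with the smallest p among those that rose were Nsdhl, Hsd17b7 and Acsl3. The first pair are enzymes of cholesterol synthesis that are also found on droplets, and Acsl3 activates fatty acids at new droplets. Nsdhl was measured at 1419, 1710 and 1703 in control and at 3812, 4067 and 4023 in DHT libraries, and its log2 fold change of 1.30 (SE 0.07, adjusted p = 2.98e-05) was the only one in the 7 pathway lists to pass both thresholds. Hsd17b7 rose by 0.54 (adjusted p = 0.000344) and Acsl3 by 0.86 (adjusted p = 0.000575) on the log2 scale. Pcyt1a, which makes phosphatidylcholine for the droplet surface, fell by 0.31 (adjusted p = 0.0075) on the log2 scale. The abundant droplet proteins Rab7 and Ubxn4 had log2 fold changes of -0.05 and -0.04 and were not called.

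Of the lipases, Pnpla2 (ATGL) starts triglyceride breakdown, Lipe (hormone-sensitive lipase) cuts diacylglycerol and cholesterol ester, and Mgll cuts the last monoacylglycerol. Pnpla2 was measured at 3386, 3226 and 3337 normalized counts in control and at 3391, 3478 and 3444 in DHT libraries. The lowest DHT library lay just above the highest control library, so the groups did not overlap, as was the case for Lpin1, Soat1 and 30.6% of all genes tested. The difference was small, at 0.05 on the log2 scale with an interval from -0.03 to 0.13 (adjusted p = 0.426).

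Lipe was measured at 568, 509 and 555 in control and at 552, 610 and 607 in DHT libraries, and the lowest DHT library lay inside the control range. Its log2 fold change was 0.12 with an interval from -0.05 to 0.28 (adjusted p = 0.358), and 15.6% of its exonic bases overlap the antisense transcript 4732471J01Rik, whose reads cannot be told apart without strand. Mgll was counted with only 7 to 16 reads a library, at 15.8, 10.2 and 14.8 normalized counts in control and 6.85, 13.1 and 15.2 in DHT libraries. The log2 fold change of Mgll was -0.24 (SE 0.36) with an interval from -1.07 to 0.58 (adjusted p = 0.73), so neither a rise nor a fall is settled.

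Abhd5, the coactivator of Pnpla2, had log2 fold change -0.02 with an interval from -0.14 to 0.10, at 815 to 886 normalized counts in control and 844 to 850 in DHT libraries. G0s2, an inhibitor of Pnpla2, was low, at 17.6 to 23.2 in control and 17.6 to 22.9 in DHT libraries, with a log2 fold change of -0.03. Hilpda, another inhibitor, rose from 422, 437 and 454 to 520, 504 and 558, a log2 fold change of 0.27 (SE 0.07, adjusted p = 0.0396), and was not called in DESeq2 (adjusted p = 0.0632). Abhd5 and G0s2 were named after their values were seen.

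Among the 18 other lipases and cofactors tested, 2 were called higher and 2 lower, where 6.52% and 4.66% of all genes were. Their median log2 fold change was 0.00, and Hilpda, called higher, was also counted among the droplet proteins. The count of higher genes was 0 without DHT replicate 3, 1 without either of control replicates 1 and 2 or of DHT replicates 1 and 2, and 1 in DESeq2. Both that fell act outside the cell on lipoprotein triglyceride. Angptl4, a secreted inhibitor of lipoprotein lipase, fell from 1748, 1662 and 1606 normalized counts in control to 887, 828 and 841 in DHT libraries, a log2 fold change of -0.97 (SE 0.05, adjusted p = 2.98e-05). Lpl, lipoprotein lipase itself, fell from 7991, 8425 and 9027 to 6650, 6303 and 5603 (log2 fold change -0.46, SE 0.07, adjusted p = 0.00296). Lipg, endothelial lipase, which acts on phospholipid of lipoproteins, rose by 0.62 (SE 0.12, adjusted p = 0.0113) on the log2 scale. Pnpla8, a phospholipase of mitochondria and peroxisomes, and Abhd12, a lysophospholipid hydrolase, had log2 fold changes of 0.03 and -0.16 and were not called, Abhd12 with an adjusted p of 0.0503.

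**Figure D4:**
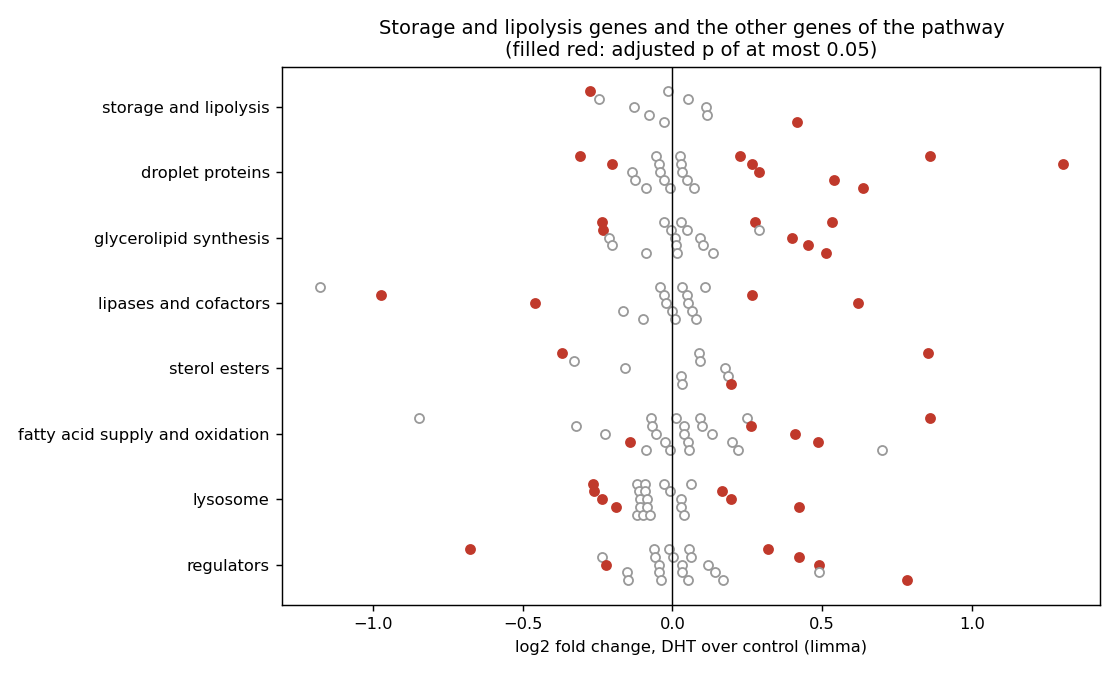
Log2 fold change of DHT over control from limma (x axis) for the 10 genes (top row) and for the other tested genes of 7 pathway lists (rows below), 1 point a gene, with filled red points for an adjusted p of at most 0.05. Called genes lie on both sides of 0 in every row, from Angptl4 at -0.97 to Nsdhl at 1.30.

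Per kilobase of exon, a scale that allows genes to be compared, the levels of the 10 genes in control cells spanned from 1144 ± 99.6 for Soat1 to 2.68 ± 0.589 for Mgll (SD, n = 3). Soat1, Pnpla2 at 1098 ± 27.0 and Plin3 at 1064 ± 53.2 lay at percentiles 89.8, 89.3 and 88.9 of all genes. Their ranges over the control libraries overlapped, so their order is not settled by these libraries. Plin2 followed at 696 ± 29.6, apart from its neighbours on both sides. Dgat1 at 312 ± 41.6, Lpin1 at 281 ± 32.1 and Lipa at 246 ± 8.44 came next, and Lpin1 overlapped with each of the other two. Lipe at 92.4 ± 5.24, Dgat2 at 39.9 ± 3.34 and Mgll were each apart from the rest.

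In DHT-treated GCs the level per kilobase of Soat1 was 945 ± 59.2, below that of Pnpla2 at 1138 ± 14.5, and the 2 genes did not overlap there. Lpin1 at 374 ± 24.6 lay above Lipa at 234 ± 8.32 without overlap, and its lowest library lay level with the highest of Dgat1, at 348.7 per kilobase. The length used moved Plin2 in this order, since with the longest transcript in place of all exons, Plin2 came second in control cells at 1294, between Soat1 at 1338 and Pnpla2 at 1263.

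**Figure D5:**
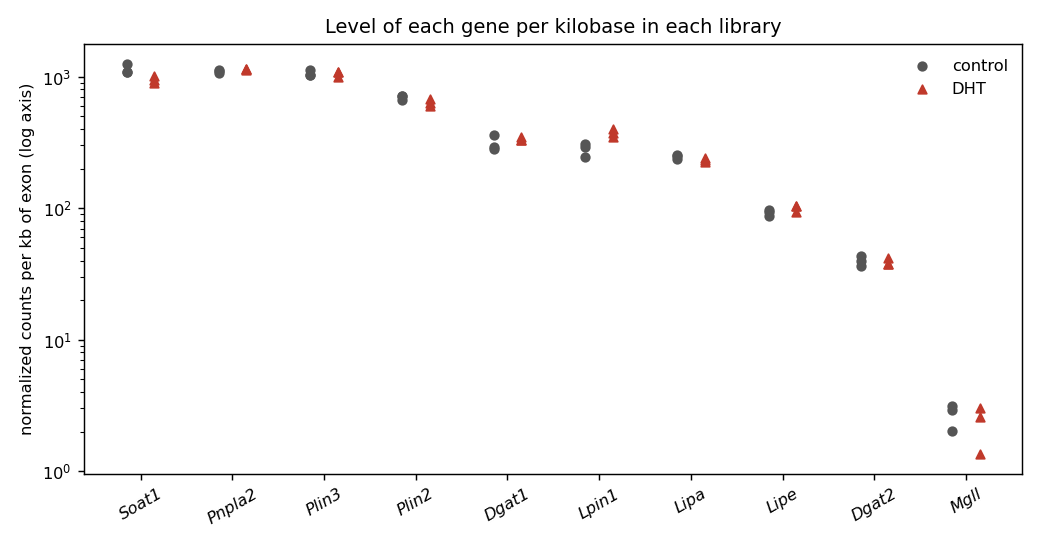
Normalized counts per kilobase of exon (y axis, log scale) of the 10 genes (x axis, ordered by their control mean), with grey circles for the 3 control and red triangles for the 3 DHT libraries. Soat1, Pnpla2 and Plin3 lie near 1000, Lipe and Dgat2 between 36.6 and 104, and Mgll between 1.35 and 3.12.

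Of 26 genes that supply or burn fatty acids, 4 were called higher and 1, Hadha at -0.14, lower, where 6.52% and 4.66% of all genes were. The lower count was 0 whichever of the 6 libraries was left out. Dbi, which binds acyl-CoA, rose by 0.41 (adjusted p = 0.000271) and Acsl4, which activates arachidonic acid, by 0.49 (adjusted p = 0.000445) on the log2 scale. Acadm, the medium-chain dehydrogenase of beta-oxidation, rose by 0.26 (adjusted p = 0.00741), and Acsl3 was counted here too. Cpt1a, the gate for fatty acids into mitochondria, and Acadl, the long-chain dehydrogenase, had log2 fold changes of 0.04 and -0.09 and were not called.

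Among 24 lysosomal genes other than Lipa, 3 were called higher and 4 lower, where 6.52% and 4.66% of all genes were. Their median log2 fold change was -0.09. Leaving out either of control replicates 1 and 2 or of DHT replicates 2 and 3 left 1 called higher, and lower calls numbered 1 without DHT replicate 1 or 2 and 2 without DHT replicate 3. Psap, which gives rise to the saposins that present lipids to hydrolases, rose by 0.42 (adjusted p = 0.00429) on the log2 scale. The hydrolase Asah1 rose by 0.16 (adjusted p = 0.0277). Npc2, also counted with the cholesterol genes, rose by 0.20 (adjusted p = 0.0495). The hydrolases Ppt1, Ctsb and Hexa fell by 0.26, 0.26 and 0.24 on that scale, with adjusted p-values of 0.0102, 0.0154 and 0.0234. The protease Ctsl and the membrane protein Lamp1 had log2 fold changes of 0.03 and -0.12 and were not called.

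Among 25 regulators of these genes, 4 were called higher and 2 lower, with 1 lower without control replicate 1 or any DHT library. Srebf2, the transcription factor for sterol synthesis, was measured at 5462, 5835 and 5952 normalized counts in control and at 8088, 8182 and 7949 in DHT libraries (log2 fold change 0.49, SE 0.04, adjusted p = 0.000174). Srebf1, its relative for fatty acid and triglyceride synthesis, rose by 0.42 (adjusted p = 0.000557) and Cebpb by 0.32 (adjusted p = 0.00379) on the log2 scale. Prkar2b, a regulatory subunit of the protein kinase A that phosphorylates Lipe, fell by 0.68 (SE 0.10, adjusted p = 0.00254) on the log2 scale. The subunits Prkar1a and Prkacb had log2 fold changes of 0.06 and -0.04 and were not called. Over all 7 lists, without the 10 genes, 24 of 141 genes were called higher and 14 lower (6 to 12 lower with 1 library left out), beside 6.52% and 4.66% of all genes, and the median log2 fold change was 0.01. The lists were chosen with earlier results of these data known.

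The genes most like Lpin1 over the 6 libraries, among 11632 genes whose mean reached 100, were Kif1a, Dcaf15 and Hells, with Pearson's r of 0.997, 0.996 and 0.995. Those most like Soat1 were Veph1, Itga6 and Gskip, with r of 0.997, 0.996 and 0.994. The libraries of a group share their treatment, which enters each r, and these values describe the 6 libraries only.

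Among the marker lists, the summed levels of luteal, granulosa and theca markers did not overlap between the groups, and those of the other lists did. Single genes weighed heavily in these sums, and 30.6% of all genes tested did not overlap either. Prlr went from a mean of 3952 in control to 7466.5 in DHT libraries, Inha from 54181 to 35515 and Ptch1 from 2543 to 2218. The granulosa markers Gja1 and Inhba had log2 fold changes of 0.06 and 0.05 and were not called. Luteal markers summed to between 3943 and 5257 normalized counts in control and between 8046 and 9368 in DHT libraries, and 2 of 4, Prlr and Ptgfr, were called higher. Ptgfr was close to the threshold (log2 fold change 1.95, SE 0.53, adjusted p = 0.048). Lhcgr at 1.38 (adjusted p = 0.11) and Akr1c18 at -0.01 were not called. Granulosa markers summed to between 186700 and 196600 in control and between 171200 and 181500 in DHT libraries, with Hsd17b1 called higher and Inha and Foxl2 lower. Foxl2 was close to the threshold (adjusted p = 0.049). Macrophage and leukocyte markers, 6 of 8 analysed, summed to between 519.7 and 613.3 in control and between 421.1 and 667.4 in DHT libraries, and Csf1r was called lower, at -0.64 on the log2 scale. The other 5 were not called, and of these Ptprc and Cd14 lay on the other side, at 0.72 and 0.23. Oocyte markers summed to between 291.8 and 756.9 in control and between 50.2 and 511.5 in DHT libraries, with 0 of 6 called. Stromal and smooth muscle markers summed to between 540.1 and 809.4 and between 591 and 869.4, and Myh11 and Cnn1 of 6 were called higher. Dcn, Pdgfra and Lum had log2 fold changes of -1.05, -0.38 and -0.24 and were not called. Theca markers, 2 of 4 analysed and without Cyp17a1 and Insl3, summed to between 2444 and 2789 in control and between 2202 and 2327 in DHT libraries, with 0 called. Endothelial markers, 3 of 5 analysed, lay between 111.6 and 136 in all libraries and epithelial markers between 3095 and 4391, also with 0 called. In these bulk samples fewer cells of a type and less RNA per cell cannot be told apart, and the part of these markers in the differences of Lpin1 and Soat1 was not tested.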

How the data were processed

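The deposited values are normalized counts, a signal that the authors made by dividing reads by the DESeq2 size factor of each library. Per the labels and the study's methods, reads were trimmed (Trimmomatic 0.36), mapped to GRCm38 (STAR 2.5.2b) and counted as unique exonic reads (featureCounts, Subread 1.5.2); strand setting and annotation release were not given in the sources used here. The log2 fold changes, p-values and adjusted p-values that the authors deposited were not used, nor was their second table of selected genes. Values were tested as log2(value + 1) with limma 3.58.1 (R 4.3.3), with an intensity trend and Benjamini-Hochberg adjustment. Every value was a whole number of reads, within 0.01, once divided by what 1 read is worth, so edgeR 4.0.16 and DESeq2 1.42.0 were run on these reads as alternatives. The 95% intervals are limma's and rest on the spread between libraries. With 3 libraries a group an exact permutation test cannot go below p = 0.1.

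Groups came from the treatment label, although the labels' extraction text names whole ovary. No replicate pair agreed within sampling noise. Exonic lengths came from GENCODE M21 (GRCm38), which matched 99.8% of IDs. Besides Lipe and Plpp1, exons of other genes overlap 37.4% of the exonic bases of Gpat3, 32.9% of Ctsl and 20.7% of Cebpb. For Agpat5, Abhd5 and Csf1r the shares are 18.9%, 16% and 15.1%, and for Ctsb and Hexa 12.8% each. From each pathway list up to 4 called genes with the smallest p and up to 2 uncalled genes with the highest mean were named, and others are marked. Plpp1, Plpp2, Agpat5, Soat2, Gpat2, Gpat3, Gpat4, Hadha, Asah1 and the single marker genes were also named after their values were seen. Genes and lists were chosen with earlier results of these data known. The alternatives were other pseudocounts (0.5 and 8), filters, scalings, tests, a replicate block, and each library left out. Protein sequences were not analysed here.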

Additional observations from a re-analysis of the deposited data

How the results depend on the processing

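The 10 genes were refitted under 16 alternatives, which gave 159 values. The direction and the side of the threshold were kept in 147 of these, and 4 turned in direction, all of genes that were not called and all on leaving out 1 library. Over the libraries left out, the log2 fold change of Plin3 ran from -0.0378 to 0.0270 (above 0 without control replicate 1 and without DHT replicate 1), that of Dgat2 from -0.0867 to 0.0334 (above 0 without control replicate 3) and that of Mgll from -0.454 to 0.0705 (above 0 without DHT replicate 1). Over the same 6 fits, 1 to 2 of the 10 genes were called higher (2 without control replicate 3) and 0 to 1 lower (0 without control replicate 1, DHT replicate 1 or DHT replicate 3). Of the other pathway genes 18 to 26 were called higher and 6 to 12 lower, against 24 and 14 with all libraries (6 lower without DHT replicate 1 or 2, 8 without control replicate 1 or DHT replicate 3). Of all genes 581 to 1237 were called higher and 350 to 857 lower, against 1063 and 760, with the lowest counts without DHT replicate 3 and counts of 586 and 384 without DHT replicate 2. Past both thresholds, 95 to 195 were higher and 41 to 91 lower, against 148 and 65 (95 and 43 without DHT replicate 3, 41 lower without control replicate 1).

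With no intensity trend, 0 of the 10 genes were called higher and 0 lower, 15 and 4 of the other pathway genes, and 501 and 303 of all genes, of which 40 lower ones passed both thresholds. With a mean of at least 50, 89 higher and 42 lower genes passed both thresholds. With the replicate block, 0 and 0 of the 10 genes were called, 5 other pathway genes lower, and 633 and 357 of all genes, with adjusted p-values of 0.0504 for Lpin1 and 0.0921 for Soat1. The deviations of same-numbered libraries correlated at 0.00583, 0.0666 and -0.238, so the numbers were not taken to pair the libraries. These values do not show how the cells were pooled, and not every library correlated best with its own number. Over the alternatives the adjusted p ranged from 9.39e-06 to 0.0886 for Lpin1, from 0.000831 to 0.136 for Soat1 and from 0.0355 to 0.801 for Dgat1. In DESeq2 Mgll had no adjusted p. Of 140 counts of called genes in the single lists, 50 moved by over 1.5 times. The cause of these shifts was not tested. Mgll was counted with 7 to 16 reads a library, the fewest of the 10 genes.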

Other observations

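Ratios of levels per kilobase within a library give the balance between related genes, as values with no test. Plin2 stood at 0.635, 0.692 and 0.637 of Plin3 in control libraries and at 0.602, 0.588 and 0.622 in DHT libraries, which did not overlap. With the longest transcript in place of all exons this ratio lay above 1, at 1.17 ± 0.0578 in control and 1.08 ± 0.0309 in DHT libraries, so which perilipin was more abundant depends on the length used. Lpin1 made up 21.9%, 22.5% and 25.5% of the 3 lipins in control and 23.8%, 22.5% and 21.1% in DHT libraries, which overlapped, and 26.4% ± 1.77 and 25.8% ± 1.22 (SD, n = 3) with the longest transcripts. The ratio of Soat1 to Nceh1 was 1.88 ± 0.201 in control and 2.01 ± 0.0926 in DHT libraries (SD, n = 3), also with overlap. Dgat1 exceeded Dgat2 by a ratio of 7.80 ± 0.494 in control and 8.61 ± 0.701 in DHT libraries, and Pnpla2 exceeded Lipe by 11.9 ± 0.395 and 11.4 ± 0.514. With the longest transcripts these were 9.26 ± 0.587 and 10.2 ± 0.833 for the DGAT genes, 8.63 ± 0.287 and 8.26 ± 0.373 for the lipases, and 1.88 ± 0.200 and 2.00 ± 0.0924 for Soat1 to Nceh1.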
